A study of Homo sapiens with 24 samples.

Results

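The S100 genes encode small calcium-binding proteins, and 10 of them are described here, S100P, S100A2, S100A3, S100A4, S100A6, S100A10, S100A11, S100A13, S100A14 and S100A16, out of 48162 genes with deposited counts. They were selected on results from these same libraries, by gene symbol. Which measured values led to each choice is not recorded, and the fall of S100P was already known. The contrast of irradiated giant cells with parental cells without drug is therefore given as a description of the 10 genes, with no p-value for any of them. Tests are given for the same contrast under drug, whose libraries are others, and for the effects of the drug. Whether the choice also drew on the contrast under drug is not known. Its p-values are therefore no independent check of the 10 genes.

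PPC1, a prostate cancer cell line, was sequenced in 4 conditions of 6 libraries each, 24 in all, from 6 independent repeats in which every condition was collected at the same time. Parental cells (UT) had no treatment. Parental cells with drug (UT_LCL) received 5 µM of LCL521, an inhibitor of the lysosomal enzyme acid ceramidase, for 5 h on day 5 before collection. Polyploid giant cancer cells (PGCC) were given 8 Gy on day 2, trypsinized on day 5 and caught on a 20 micron filter. PGCC with drug (PGCC_LCL) had the same radiation and filter, with 5 µM LCL521 for 5 h on day 5 before collection. The study's methods call the day of both drug exposures day 3. The parental cells were neither irradiated nor filtered, so radiation, cell size and the filter step cannot be told apart. The PGCC are a size fraction and not a cloned line, and whether each captured cell was polyploid was not tested here.

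S100 proteins are found in vertebrates, and each carries a pair of EF hands, helix-loop-helix folds whose loop holds a calcium ion. Most form dimers, and binding of calcium opens a surface that docks onto target proteins such as annexins, nonmuscle myosin and ezrin. Several also leave the cell and act on receptors such as the receptor for advanced glycation end products (AGER, or RAGE). Many S100 genes lie side by side on the long arm of chromosome 1, while S100P lies apart from them on chromosome 4. S100P and S100A4 are widely studied in carcinomas, the former as a secreted RAGE ligand and the latter as a regulator of myosin and cell movement.

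Total counts lay between 14835246 and 19906601 per library. The floor used here, 3 counts in a library, came to between 0.151 and 0.202 CPM (counts scaled to library size with edgeR's TMM factors), for counting error only. Replicates 4 and 5 of each condition stood apart on the second principal component (16.5% of the variance), at 13.3 or above against -4.11 or below in the other replicates. Of 9 epithelial and prostate markers, KRT8, KRT18 and KRT19 were well counted (medians of 113, 196 and 681 CPM over the 24 libraries), while KLK3 and TMPRSS2 had at most 2 counts in any library. Of the 4 tested, KRT8 and KRT19 were higher in PGCC without drug (log2 fold change 1.35 and 0.42) and with it (1.51 and 0.38), KRT18 was lower (-0.46 and -0.38), and CDH1, or E-cadherin, had -0.61, not called, and -1.18, called (edgeR adjusted p = 0.0964 and 0.00132). Of the leukocyte markers, CD68 and CD3E had at most 2 counts, CD14 at most 13 and PTPRC between 6 and 70. PTPRC, the leukocyte surface phosphatase CD45, rose in the PGCC from 1.17 ± 1.03 to 3.10 ± 0.606 CPM without drug (SD, n = 6 each; log2 difference 1.39 ± 0.43 SE, edgeR adjusted p = 0.0164) and from 1.16 ± 0.752 to 2.72 ± 0.611 CPM with drug (1.25 ± 0.36 SE, edgeR adjusted p = 0.0109). Of the 6 fibroblast and endothelial markers, COL1A2 was well counted (42.4 to 199 CPM), COL1A1 had 5.01 to 14.2 CPM, and PDGFRB, DCN and VWF had at most 19 counts. COL1A2, a fibrillar collagen chain, rose in the PGCC by 0.82 ± 0.32 SE on the log2 scale without drug (edgeR adjusted p = 0.0474) and by 0.92 ± 0.27 SE with drug (edgeR adjusted p = 0.0108). COL1A1, the other one tested, had -0.23 and -0.32 and was not called (edgeR adjusted p = 0.40 and 0.219). The part of these markers in the results that follow was not tested.

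The C-terminal EF-hand loop is shown for 8 of the 10 genes, since calcium binding is what these proteins share and this is the stretch that codes for one of their calcium-holding loops. A loop of 12 codons was searched for in the coding sequence of GENCODE 29, with aspartate at codon 1, aspartate, asparagine or serine at codons 3 and 5 and glutamate at codon 12, positions whose side chains hold calcium. Capitals mark these codons, and positions are on GRCh38.
S100P (chr4:6696938-6696973, + strand): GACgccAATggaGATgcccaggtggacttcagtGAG
S100A2 (chr1:153561511-153561546, - strand): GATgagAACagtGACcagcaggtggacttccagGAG
S100A3 (chr1:153547766-153547801, - strand): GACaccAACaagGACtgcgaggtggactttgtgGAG
S100A4 (chr1:153543843-153543878, - strand): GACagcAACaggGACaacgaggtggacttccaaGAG
S100A6 (chr1:153534753-153534788, - strand): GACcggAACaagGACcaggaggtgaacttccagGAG
S100A11 (chr1:152032743-152032778, - strand): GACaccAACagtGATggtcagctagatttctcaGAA
S100A13 (chr1:153618967-153619002, - strand): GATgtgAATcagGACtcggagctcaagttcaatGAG
S100A16 (chr1:153607612-153607647, - strand): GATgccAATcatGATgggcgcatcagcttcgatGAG
No such loop was matched in S100A10, known as the family member that does not bind calcium, or in S100A14. The 10 coding sequences run from 270 bases (S100A6) to 315 bases (S100A11). Over the 45 pairs of genes their identity lay between 46.9% (S100P and S100A14) and 69.0% (S100A2 and S100A4), with a median of 53.7%. The longest identical run shared by any pair of transcripts was 17 bases.

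Levels between genes are compared only per kilobase of gene length, as mean CPM per kb with the SD over 6 libraries. In parental cells S100A6 stood highest at 1157 ± 96 CPM per kb, followed by S100A16 at 904 ± 144, and the ranges of this pair overlapped. S100A11 came next at 412 ± 47.8, clear of its neighbours in the order. S100A10 (166 ± 45.8) and S100P (145 ± 30.4) overlapped, and S100A13 followed at 71.3 ± 10.3. S100A4 (11.1 ± 3.32) and S100A2 (6.98 ± 3.19) overlapped, as did S100A3 (1.53 ± 0.536) and S100A14 (0.531 ± 0.377), the lowest. In PGCC the order of the first 3 was the same, with S100A6 at 1452 ± 159 CPM per kb and no overlap with S100A16 at 814 ± 53.1. S100A4 (44.3 ± 7.56) came sixth and S100P (26.8 ± 7.02) seventh, with overlapping ranges.

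All S100 genes together held between 0.212% and 0.280% of the counts in parental cells and between 0.256% and 0.306% in PGCC. The sum was 2624 ± 286 CPM in parental cells and 2796 ± 210 CPM in PGCC. With the drug it was 2452 ± 269 and 2632 ± 220 CPM. S100P supplied 7.22% ± 2.12 of the S100 counts in parental cells and 1.22% ± 0.25 in PGCC. S100A16 supplied 39.3% ± 2.48 and 33.5% ± 2.73, and S100A6 supplied 29.8% ± 1.61 and 34.9% ± 1.45. The ranges of the total overlapped between the populations, whereas the share of S100P did not, with 5.14% to 10.9% in parental cells and 0.862% to 1.63% in PGCC.

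Without drug, 8 of the 10 genes were higher in PGCC and 1, S100P, was lower with an adjusted p under 0.05 in edgeR's quasi-likelihood fit over all 13812 genes tested, in which 23.1% of genes were higher and 24.3% lower. This is the contrast the choice of genes may have used, so nothing is read from the count. Every PGCC library was above every parental library for S100A2, S100A3, S100A4 and S100A13, which held for 13.9% of all genes tested, and every PGCC library was below for S100P, as for 12.9%. The median log2 fold change was 0.50 over the 10 genes and -0.03 over all genes.

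With LCL521 in both populations, 8 of the 10 genes were higher in PGCC and 1 was lower, where 25.0% of the 13818 genes tested were higher and 23.9% lower. The higher genes were S100A2, S100A3, S100A4, S100A6, S100A10, S100A11, S100A13 and S100A14, the lower gene was S100P, and S100A16 was not called. For S100A2, S100A3 and S100A4 every PGCC library lay above every parental library, which 14.4% of all genes did, and for S100P every PGCC library lay below, as in 13.7%. The median log2 fold change was 0.55 over the 10 genes against -0.01 over all genes tested. These libraries share no sample with the drug-free contrast, but they come from the same 6 repeats. Whether the choice of genes used them is not recorded. RNA was taken from whole populations. A change in the share of cells that make a transcript thus cannot be told apart from a change within cells. CPM is relative to the rest of the library and no RNA amount per cell was used, so copies per cell are not known.

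**Figure D1:**
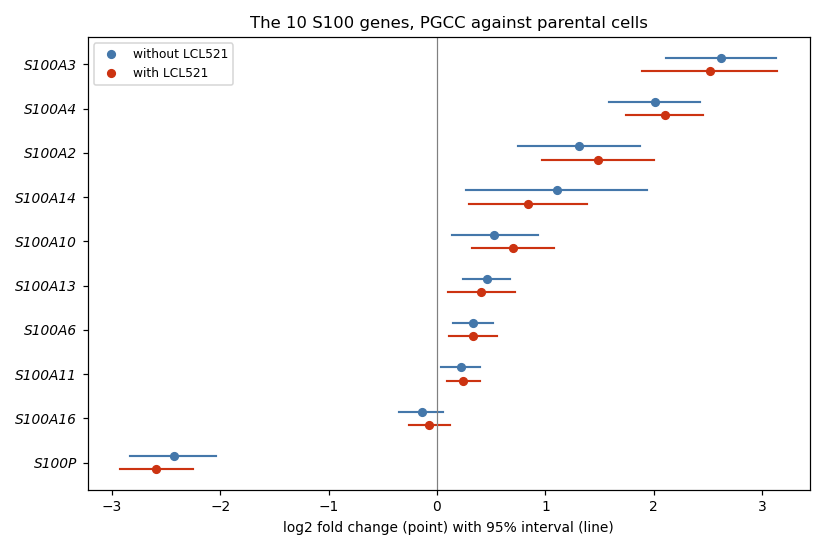
Log2 fold change of each of the 10 genes in PGCC against parental cells, without LCL521 (blue) and with LCL521 (red), from 6 libraries per condition, with 95% intervals as lines. S100P lies near -2.43 and -2.59, S100A3 and S100A4 lie at 2.01 or above, and the intervals of S100A16 cross 0 in both contrasts.

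S100P, the RAGE ligand and ezrin activator, had the largest fall of the 10 genes. The gene (ENSG00000163993) lies on chromosome 4 from 6694796 to 6698897 on the plus strand (hg19). It was measured at 138 to 237 CPM in parental cells (median 192) and at 22.4 to 49.2 CPM in PGCC (median 34.2), a log2 fold change of -2.43. Parental cells with LCL521 had 150 to 229 CPM (median 176), and PGCC with LCL521 had 21.6 to 38.0 CPM (median 30.9). All 12 PGCC libraries were below all 12 parental libraries, with the lowest parental library at 138 CPM and the highest PGCC library at 49.2 CPM. Under LCL521 the log2 fold change was -2.59 (standard error 0.16, edgeR adjusted p = 1.75e-08), and the two-sided exact permutation test over libraries gave p = 0.00216, the smallest that 6 against 6 allows. The paired difference averaged -2.31 in replicates 1, 2, 3 and 6 and -3.26 in replicates 4 and 5.

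**Figure D2:**
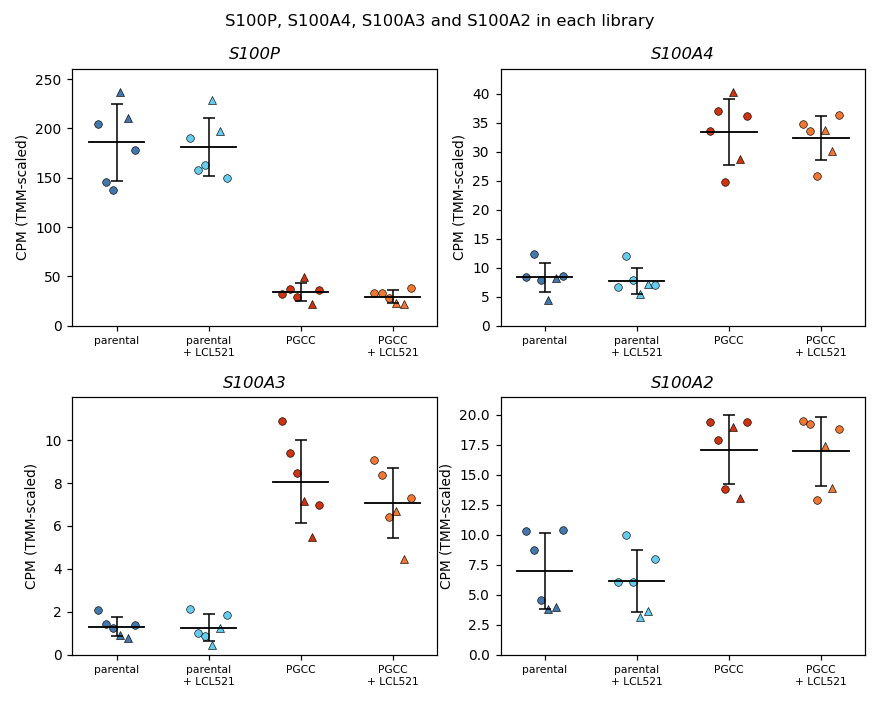
CPM of S100P, S100A4, S100A3 and S100A2 in every library, by condition (points, with triangles for replicates 4 and 5), with the mean (long bar) and SD (whiskers) of 6 libraries. S100P is lower and the other genes are higher in every PGCC library than in every parental library, while the conditions with and without LCL521 overlap.

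S100A4, also called metastasin, binds nonmuscle myosin IIA and is known from cell movement and metastasis. Parental libraries held 4.47 to 12.4 CPM of it (median 8.33) and PGCC libraries 24.8 to 40.3 CPM (median 34.9), a log2 fold change of 2.01. Parental cells with LCL521 had 5.47 to 12.1 CPM (median 7.12), and PGCC with LCL521 had 25.8 to 36.4 CPM (median 33.7). No PGCC library overlapped a parental one. Under LCL521 the gene rose by 2.10 on the log2 scale (standard error 0.16, edgeR adjusted p = 2.25e-07). In replicate 4 it was at 4.47 CPM in parental cells, the lowest, and 40.3 CPM in PGCC, the highest.

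S100A3, a cysteine-rich member known from the hair cuticle, had the largest rise of the 10 genes on a low level. It was measured at 0.758 to 2.07 CPM in parental cells (median 1.32) and 5.50 to 10.9 CPM in PGCC (median 7.82), a log2 fold change of 2.62. Parental cells with LCL521 had 0.465 to 2.14 CPM (median 1.11), from as few as 8 counts, and PGCC with LCL521 had 4.45 to 9.07 CPM (median 7.0). The populations did not overlap. Under LCL521 it rose by 2.52 on the log2 scale (standard error 0.29, edgeR adjusted p = 8.45e-06). Its whole span of 2044 bases lies inside that of S100A4 on the same strand, so how far the counting assigned shared reads to either gene is uncertain, and the rises of S100A3 and S100A4 are not independent measurements.

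S100A2, an epithelial member that binds p53, lies next to S100A3 and S100A4. Its level was 3.83 to 10.4 CPM in parental cells (median 6.67) and 13.1 to 19.4 CPM in PGCC (median 18.5), a log2 fold change of 1.31. With LCL521 the ranges were 3.14 to 10.0 CPM (median 6.06) and 12.9 to 19.5 CPM (median 18.1). The populations did not overlap, and the fold was larger in the libraries of replicates 4 and 5, where parental levels were lowest. Under LCL521 it rose by 1.49 on the log2 scale (standard error 0.24, edgeR adjusted p = 0.000157), with a mean paired difference of 2.15 in replicates 4 and 5 and 1.23 in the others.

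S100A10, or p11, is known for its complex with annexin A2, which brings plasminogen to the cell surface. Levels ran from 116 to 252 CPM in parental cells (median 216) and from 222 to 348 CPM in PGCC (median 296), a log2 fold change of 0.53. Under the drug these were 108 to 215 CPM (median 180) and 207 to 348 CPM (median 255). The ranges overlapped in both contrasts, although the PGCC library was the higher one in all 6 same-numbered pairs of each contrast. Under LCL521 it rose by 0.70 on the log2 scale (standard error 0.18, edgeR adjusted p = 0.00485), and the exact permutation p was 0.00649. In parental cells replicates 4 and 5 were lowest, at 116 and 154 CPM.

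S100A6, or calcyclin, and S100A11, or calgizzarin, were the abundant members with small rises. S100A6 was measured at 665 to 857 CPM in parental cells (median 796) and 815 to 1081 CPM in PGCC (median 1006), a log2 fold change of 0.33. Under the drug its ranges were 610 to 862 CPM (median 732) and 771 to 1089 CPM (median 919). Both contrasts overlapped. Under LCL521 S100A6 rose by 0.33 on the log2 scale (standard error 0.10, edgeR adjusted p = 0.0168), a call lost without replicate 1 (adjusted p = 0.0523), without replicate 6 (0.114) and with a correction for gene length (log2 fold change 0.20, adjusted p = 0.153). It was also lost with no filter beyond 1 count in any library (adjusted p = 0.0647). With the replicate number as a block, it was lost without replicates 4 and 5 (0.0515) and with the length correction (0.112).

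S100A11, which binds annexin A1 and takes part in membrane repair, was measured at 194 to 273 CPM in parental cells (median 246) and 258 to 306 CPM in PGCC (median 290), a log2 fold change of 0.22. Parental cells and PGCC with LCL521 had 203 to 249 CPM (median 219) and 231 to 284 CPM (median 260). The populations overlapped in both contrasts. Under LCL521 it rose by 0.24 on the log2 scale (standard error 0.07, edgeR adjusted p = 0.0139). The rise was 0.10 with the length correction (adjusted p = 0.424), and the call was also lost without replicate 6 (adjusted p = 0.0946). The adjusted p was 0.131 with no filter beyond 1 count in any library. With the replicate number as a block and the length correction it was 0.2.

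S100A13 helps to export growth factors and cytokines that lack a signal peptide, together with synaptotagmin 1. It was measured at 116 to 182 CPM in parental cells (median 160) and 198 to 244 CPM in PGCC (median 205), without overlap and with a log2 fold change of 0.46. With LCL521 the ranges were 114 to 209 CPM (median 146) and 173 to 260 CPM (median 190), which overlapped. Under LCL521 it rose by 0.41 on the log2 scale (standard error 0.15, edgeR adjusted p = 0.0321). The call was lost without replicate 1 (adjusted p = 0.0691), replicate 5 (0.0718) or replicate 6 (0.131), and without both replicates 4 and 5 (0.0546). With no filter beyond 1 count in any library the adjusted p was 0.0504. The gene overlaps CHTOP on the opposite strand by 349 bases, and whether counting used the strand is not stated. CHTOP fell by 0.25 on the log2 scale under LCL521 (standard error 0.08, edgeR adjusted p = 0.0163).

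S100A14, an epithelial member that can act on RAGE, was close to the limit of detection. It had 4 to 25 counts in parental libraries, or 0.241 to 1.46 CPM (median 0.425), and 17 to 41 counts in PGCC, or 1.04 to 2.28 CPM (median 1.26). The log2 fold change was 1.11, and the ranges overlapped through replicates 4 and 5 of the parental cells, at 0.929 and 1.46 CPM. Without those replicates it was 1.98. With LCL521 the ranges were 0.441 to 0.872 CPM (median 0.702) and 0.819 to 1.62 CPM (median 1.24). Under LCL521 the gene rose by 0.84 on the log2 scale (standard error 0.25, edgeR adjusted p = 0.0126). That value rests on 7 to 15 counts in parental libraries with LCL521 and 15 to 27 in PGCC with LCL521. The call was lost without replicate 2 (adjusted p = 0.0601). It was also lost with no filter beyond 1 count in any library (log2 fold change 0.80, adjusted p = 0.0521).

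S100A16, a broadly expressed member, was the gene of the 10 not called under LCL521 with all libraries. It was measured at 784 to 1221 CPM in parental cells (median 1038) and 859 to 1041 CPM in PGCC (median 927), a log2 fold change of -0.14. With LCL521 the ranges were 744 to 1143 CPM (median 969) and 873 to 922 CPM (median 903). The PGCC libraries lay inside the parental range in both contrasts. Under LCL521 the log2 fold change was -0.07, with a 95% interval of -0.26 to 0.12 (edgeR adjusted p = 0.518). The paired difference was -0.20 on average in replicates 1, 2, 3 and 6 and 0.13 in replicates 4 and 5, where parental levels were lower. Without replicates 4 and 5 the log2 fold change was -0.29 in the drug-free contrast and -0.17 under LCL521, the latter not called (edgeR adjusted p = 0.104).

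**Figure D3:**
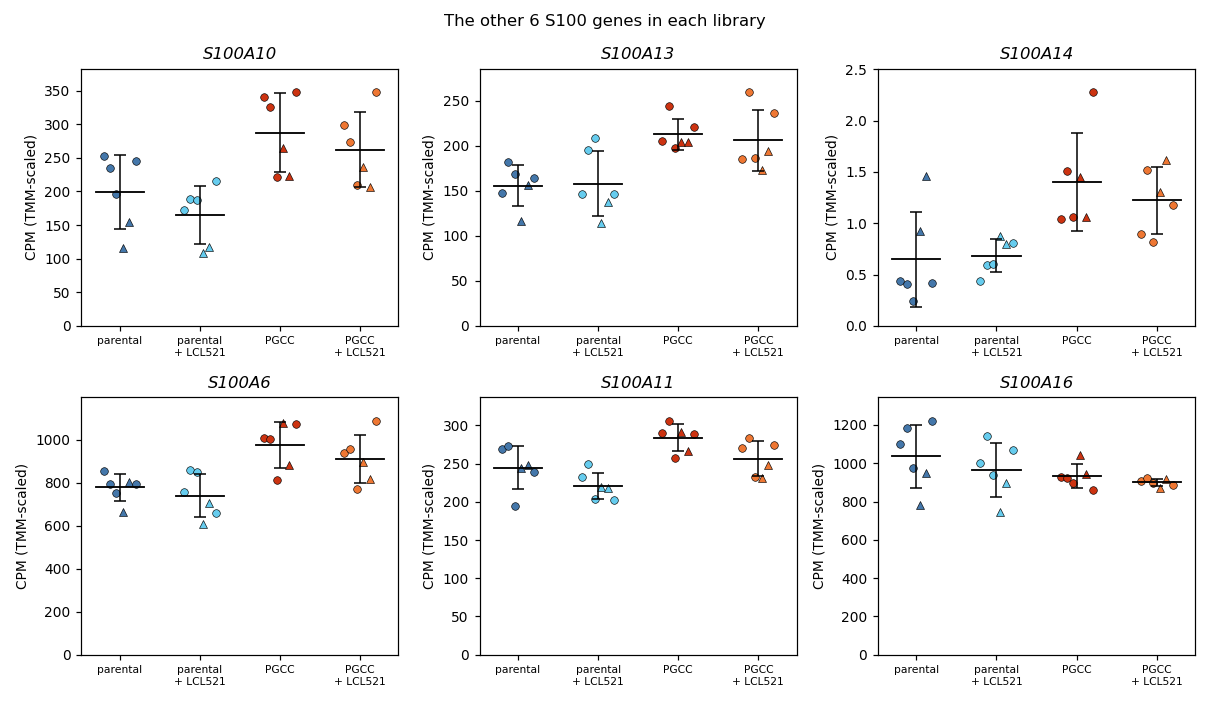
CPM of S100A10, S100A13, S100A14, S100A6, S100A11 and S100A16 in every library, by condition (points, with triangles for replicates 4 and 5), with the mean (long bar) and SD (whiskers) of 6 libraries. PGCC and parental libraries overlap for each gene in at least 1 contrast, and S100A16 has its widest spread in parental cells, from 784 to 1221 CPM.

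Replicates 4 and 5 differed from the others in several members. Relative to their condition mean, the parental libraries of these replicates deviated on the log2 scale by -0.69 for S100A2, -0.52 for S100A10, -0.51 for S100A3, 0.94 for S100A14 and 0.29 for S100P. In PGCC the same deviations were -0.10, -0.22, -0.32, -0.11 and -0.01. In PGCC with LCL521 S100P deviated by -0.39, against 0.24 in parental cells with LCL521, and its log2 fold change under LCL521 was -2.27 without these replicates. Without them 7 of the 10 genes were called higher and 1 lower under LCL521, where 27.9% of all genes tested were higher and 24.6% lower. In the drug-free contrast 7 were higher and 2 lower, S100P and S100A16, where 27.7% and 26.9% of all genes were, and nothing is read from that count.

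No member was called with LCL521 against without it in the fits without a block. In parental cells no member was called, as for 0% of the 13277 genes tested (71 genes had an unadjusted p under 0.05, and neither DESeq2 nor limma-voom called any). The members' log2 fold changes ran from -0.27 for S100A10 to 0.09 for S100A14, with 8 below 0. In PGCC no member was called, where 0.00707% of the 14151 genes tested were (218 had an unadjusted p under 0.05, and DESeq2 called 6 genes and limma-voom 0). All 10 members had log2 fold changes below 0 there, from -0.21 for S100P to -0.01 for S100A2, none past the test. The interaction of drug with population was not called for any member or for any other gene (0% of 14555, with 60 genes at an unadjusted p under 0.05 and 0 called by DESeq2 or limma-voom). The members' interaction values ran from -0.28, for S100A14, to 0.16 on the log2 scale. That of S100A14 was -0.81 without replicate 5 and -1.13 without replicates 4 and 5 (edgeR adjusted p = 1 in each).

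With the replicate number as a block, small falls of S100A10 and S100A11 passed the test. In parental cells S100A10 had 200 ± 55 CPM without and 165 ± 42.9 CPM with LCL521 (SD, n = 6), and was lower with the drug in all 6 pairs. Its log2 fold change in the blocked fit was -0.26 (standard error 0.05, edgeR adjusted p = 0.0318), where 0.346% of all genes tested were called lower. In PGCC it had 288 ± 58.4 and 262 ± 55.6 CPM, a blocked log2 fold change of -0.13 (standard error 0.03, edgeR adjusted p = 0.0462), which did not pass with a length correction (adjusted p = 0.107). There 0.572% of all genes tested were called lower. S100A11 fell by 0.14 on the log2 scale in PGCC with the block (standard error 0.03, edgeR adjusted p = 0.0286), from 284 ± 17.6 to 257 ± 22.7 CPM, and was lower in all 6 pairs. In parental cells its blocked value was also -0.14 with an adjusted p of 0.167, and 0.0275 with the block and the length correction. With the block but without replicates 4 and 5 (4 pairs), no member was called in either population. The drug contrast and the population contrasts share libraries, so these values are set side by side and not combined.

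**Figure D4:**
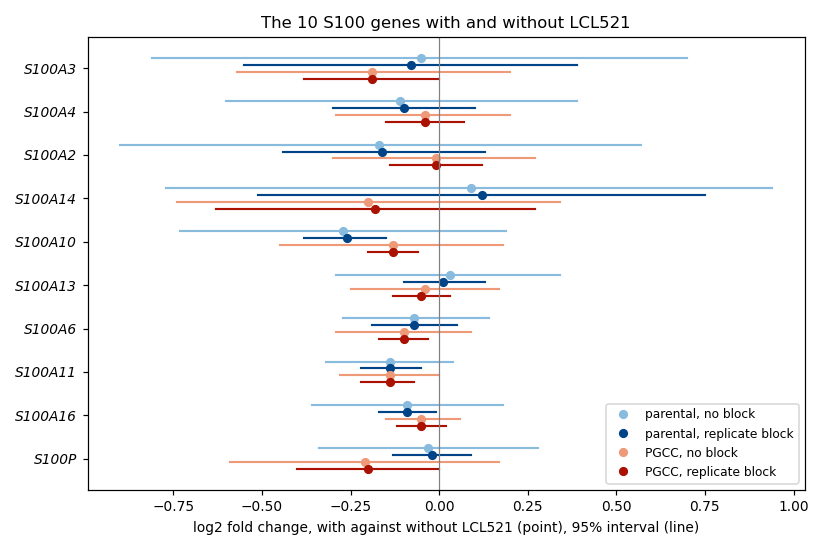
Log2 fold change of each of the 10 genes with LCL521 against without, in parental cells (blue) and PGCC (red), in the fit without a block (light) and with the replicate number as a block (dark), with 95% intervals as lines from 6 libraries per condition. The blocked intervals of S100A10 and S100A11 lie below 0 in both populations, and that of S100A10 in parental cells runs from -0.38 to -0.15.

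Of 11 other S100 genes, 3 passed the filter on low counts. S100A5, a member known from olfactory neurons, lies between S100A6 and S100A4 and had 0.794 ± 0.249 CPM in parental cells and 3.60 ± 0.979 CPM in PGCC (SD, n = 6). Its log2 fold change was 2.18 (standard error 0.25, edgeR adjusted p = 8.69e-06), and 2.41 under LCL521 (standard error 0.24, adjusted p = 1.87e-06). S100A1, known from heart muscle, was not called in either contrast (log2 fold change 0.29 and 0.64), nor was S100A9, a subunit of calprotectin (-0.70 and -0.94). The whole span of S100A1, 4112 bases, lies inside that of S100A13 on the opposite strand. Whether counting used the strand is not stated, so the few counts of S100A1 are uncertain. S100A7, S100A7A, S100A7L2, S100A8, S100A12, S100B, S100G and S100Z had at most 5 counts in any library, so the partner of S100A9 in calprotectin, S100A8, was not detected, with 0 counts throughout. Of 7 fused S100 genes of the epidermis such as FLG, at most 1 was tested in a contrast and none was called.

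Genes beside the members that are not S100 genes were not called higher. On chromosome 1 the S100A genes from S100A6 to S100A13 lie between 153507075 and 153606873, and S100A10 and S100A11 lie further left, from 151955391 and 152004982 (hg19). Of 5 tested genes within 100 kb that are not S100 genes, 0 were higher and 3 were lower in PGCC in both contrasts. CHTOP, which overlaps S100A13, was one of these. Among all genes tested, 23.1% were higher and 24.3% lower without LCL521, and 25.0% and 23.9% with it. Under LCL521 SNAPIN, the nearest on the right that overlaps no member, 24257 bases from S100A13, fell by 0.50 on the log2 scale (standard error 0.11, edgeR adjusted p = 0.00192), and THEM4, left of S100A10, fell by 0.33 (standard error 0.08, adjusted p = 0.00467). On chromosome 4, 6 tested genes lie within 100 kb of S100P, and 0 were higher and 3 lower in both contrasts. MRFAP1L1, 10531 bases to its right, fell by 0.48 (standard error 0.08, edgeR adjusted p = 0.000181), and AC093323.3, 17022 bases to its left, fell by 0.56 (standard error 0.16, adjusted p = 0.0108), both smaller in size than the log2 fold change of -2.59 of S100P. The neighbours' median log2 fold change under LCL521 was -0.25 on chromosome 1 and -0.35 on chromosome 4.

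Annexins are calcium-dependent membrane-binding proteins and the best-known partners of S100 dimers. Of 14 listed, 10 were tested, and 4 were higher and 2 lower in PGCC in either contrast, with a median log2 fold change of 0.12 without and 0.31 with LCL521. Of all genes tested, 23.1% were higher and 24.3% lower without LCL521, and 25.0% and 23.9% with it. ANXA2, the partner of S100A10, rose from 687 ± 117 CPM in parental cells to 1448 ± 143 CPM in PGCC (SD, n = 6), by 1.08 on the log2 scale (standard error 0.11, edgeR adjusted p = 4.08e-06), and by 1.14 under LCL521 (adjusted p = 1.72e-06). ANXA10 rose by 2.35 and 2.24, and ANXA6 by 0.45 and 0.48. ANXA7 fell by 0.40 in both, and ANXA11, a partner of S100A6, had -0.25 and -0.23, called in both. The ANXA11 calls were lost with library totals (adjusted p = 0.092 and 0.0726) and without replicate 3 (0.0526 and 0.0844), and the call under LCL521 also without replicate 2 (0.0674). ANXA1, the partner of S100A11, had 0.17 and 0.25 and was not called with all libraries and no block, whereas with the block the edgeR adjusted p was 0.0664 and 0.00918. Without replicates 4 and 5 and with no block it was called under LCL521 (0.31, adjusted p = 0.0419). Without them and with the block it was called in both contrasts (0.21 and 0.31, adjusted p = 0.00463 and 0.00207). With the block and the length correction the adjusted p was 0.0436 and 0.0104.

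Of 17 other listed partners and receptors, 15 were tested, and 7 were higher and 1 lower in PGCC without LCL521, and 8 higher and 1 lower with it, with medians of 0.31 and 0.39. The shares over all genes tested were 23.1% higher and 24.3% lower without LCL521, and 25.0% and 23.9% with it. EZR (ezrin), which S100P activates, rose from 190 ± 48.7 to 292 ± 52.2 CPM (SD, n = 6), by 0.63 on the log2 scale (standard error 0.17, edgeR adjusted p = 0.00744), and by 0.79 under LCL521 (adjusted p = 0.000669). MYH9, the heavy chain of the myosin that S100A4 binds, rose by 0.52 (standard error 0.14, adjusted p = 0.00827) and by 0.62 (adjusted p = 0.000602). TLR4, a receptor for several secreted S100 proteins, rose by 1.85 and 1.70 (adjusted p = 0.000129 and 0.000342). SYT1, the synaptotagmin of the S100A13 export complex, fell by 0.66 and 0.76 (adjusted p = 0.00447 and 0.00221). Without replicates 4 and 5 SYT1 had -0.33 (adjusted p = 0.0552, not called) and -0.44 (0.028). FGF1 and IL1A, cargoes of that export route with means under 10 CPM, were called higher in both contrasts and are named after their values were seen. FGF1 had 1.38 ± 0.62 CPM in parental cells and 7.57 ± 2.48 CPM in PGCC, and IL1A had 0.0879 ± 0.103 CPM, below the floor, and 1.72 ± 0.51 CPM (SD, n = 6). AGER, the RAGE gene, was at 1.15 ± 0.598 CPM in parental cells and 0.990 ± 0.298 CPM in PGCC and was not called. AHNAK, a scaffold bound by S100A10, had -0.09 and -0.10, and CACYBP, the calcyclin-binding protein of S100A6, had 0.02 and 0.13, neither called with all libraries. With the block and without replicates 4 and 5, AHNAK and CACYBP were called lower in the drug-free contrast (-0.23 and -0.16, edgeR adjusted p = 0.0121 and 0.0434).

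Of 38 other EF-hand genes, 33 were tested, and 12 were higher and 7 lower in PGCC without LCL521, and 13 higher and 7 lower with it. Over all genes tested, 23.1% were higher and 24.3% lower without LCL521, and 25.0% and 23.9% with it. The median log2 fold change of the EF-hand genes was 0.11 and 0.17. Under LCL521 the largest rises were those of RCN3, a calcium-binding protein of the secretory pathway (1.42), STIM2, a calcium sensor of the endoplasmic reticulum (0.97), and CALM3, a calmodulin gene (0.95). The largest falls were those of SPARC, a matrix protein (-1.04), RCN1 (-0.64) and SRI, or sorcin (-0.46). All 6 had edgeR adjusted p-values of 0.000465 or lower.

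Over the 45 pairs of members, Pearson's r of log2 CPM lay between -0.94, for S100P and S100A4, and 0.93, for S100A3 and S100A4, with a median of 0.55. These values carry the difference between populations and are a description. After the condition means were subtracted, r lay between -0.47, for S100A3 and S100A14, and 0.87, for S100A2 and S100A10, with a median of 0.39. The highest of these was 0.75 without replicates 4 and 5, and the pair of S100A3 and S100A14 was at -0.13. S100A3 and S100A4, whose spans overlap on the same strand, were at 0.25 after the subtraction, and at -0.22 without replicates 4 and 5.

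Likeness was taken over the 9249 genes whose mean was 10 CPM or more. There the pattern of S100P over the 24 libraries was most like that of RPL10, EEF1A1, GNB2L1, NACA and RPL29, with Pearson's r of 0.98 each. S100A2 was most like SFN (0.96), S100A3 like PTGER4 (0.98), S100A4 like NRGN (0.98), S100A6 like MLF1 (0.89) and S100A10 like COTL1 (0.95). S100A11 was most like TAF12 (0.84), S100A13 like UBL5 (0.98), S100A14 like TGIF1 (0.87) and S100A16 like TALDO1 (0.93). All 24 libraries share the division into populations, which sets much of these values.

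With condition means subtracted, the genes most like S100P included HIST1H4H (0.80), SERPINE2 (0.78), SLC3A2 (0.77) and TPBG (0.76). S100A10 was then most like ANXA2 out of the 9249 genes, with r = 0.92 over 24 libraries. Since replicates 4 and 5 lie apart, r was also taken within each set, and it was 0.79 over the 16 libraries of replicates 1, 2, 3 and 6 (Spearman's rho 0.55) and 0.89 over the 8 of replicates 4 and 5 (rho 0.69). Over all 24, rho with ANXA2 was 0.84. With S100A2, another member, r was 0.87, 0.75 and 0.87 over the 24, 16 and 8 libraries, and rho was higher than with ANXA2, at 0.86, 0.71 and 0.90. With S100A16 r was 0.67, 0.38 and 0.88, and with S100A6 it was 0.71, 0.69 and 0.80. Varying together with S100A10 was thus not particular to ANXA2. S100A2 was most like AHSA1 (0.92), S100A3 like DNAJC5 (0.85), S100A4 like MIS18A (0.87), S100A6 like TCEB2 (0.86) and S100A11 like ZNF330 (0.77). S100A13 was most like TXNDC17 (0.96), S100A14 like THAP9-AS1 (0.79) and S100A16 like SFN (0.94).

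**Figure D5:**
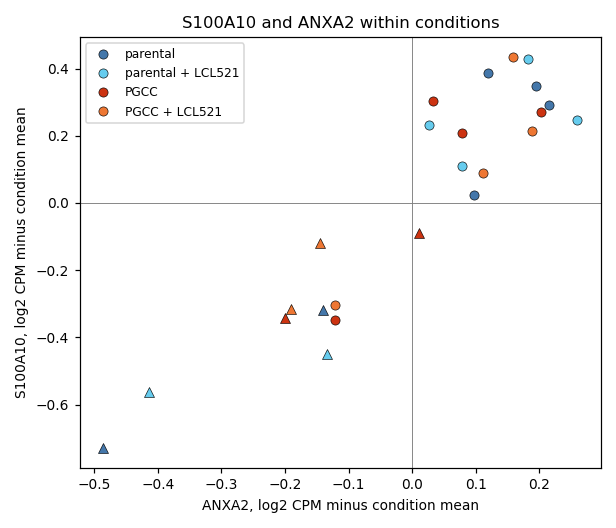
Log2 CPM of S100A10 (vertical) and ANXA2 (horizontal) in each of the 24 libraries, each minus the mean of its condition, colored by condition, with triangles for replicates 4 and 5. The libraries rise together (r = 0.92). In parental cells, with and without drug, replicates 4 and 5 sit at the lower left, while in PGCC replicate 4 lies near 0 on the ANXA2 axis and replicate 3 is below 0 on both axes.

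The 250 bases before the start of S100P are shown because S100P had the largest fall of the 10 genes. The sequence is that of RefSeq on GRCh38.p14, chr4:6693628-6693877 on the plus strand, with a TATAAA motif in capitals that begins 28 bases before the start.
S100P promoter: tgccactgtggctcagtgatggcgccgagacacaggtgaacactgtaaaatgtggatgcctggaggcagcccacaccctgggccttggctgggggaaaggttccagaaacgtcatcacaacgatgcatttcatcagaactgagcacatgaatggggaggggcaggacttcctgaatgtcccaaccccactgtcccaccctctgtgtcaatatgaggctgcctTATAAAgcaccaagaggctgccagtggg
RefSeq listed 14 promoters for the 10 genes. On either strand, TATAAA was found in promoters of S100P, S100A4 and S100A13, and in 10.7% of all 35116 promoters of this length. TGACTCA was found for S100A2 and S100A3 and in 4.20% of all promoters. CCAAT was found for S100A3, S100A13 and S100A16 (32.0% of all), and GGGCGG for S100A3, S100A6, S100A10, S100A11, S100A13 and S100A16 (42.6%). Of these 4 motifs, S100P thus held TATAAA alone. These are matches of letters and not measured binding sites.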

How the data were processed

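RNA of PPC1 cells was sequenced in 24 libraries, 6 in each of 4 conditions. The authors deposited read counts per gene, not normalized, with each gene's length, coordinates, identifier and symbol. Per the labels, the submitters' processing notes name CASAVA, STAR, HTSeq, DESeq2 and hg19, and coordinates of whole genes are printed on that build. The strand setting of the counting is not given in the sources used here, so overlapping genes are uncertain. No per-sample column was left out (0).

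The software was Python 3.11.15 and R 4.3.3, in which DESeq2 1.42.0, limma 3.58.1 and edgeR 4.0.16 were run. Genes were kept by filterByExpr (minimum count 10, minimum total 15), and TMM factors scaled the libraries. Each comparison was a quasi-likelihood fit in edgeR on its own 12 libraries, and the interaction used all 24. Benjamini-Hochberg adjustment ran over all genes tested, and 0.05 was the threshold. Log2 CPM carries a prior count of 2, and intervals are at the 95% level. The 10 genes, the lists and the tests were chosen with earlier results of these data known. List genes were named by rule: up to 3 largest rises and 3 largest falls per list among called genes under LCL521 whose mean reached 10 CPM, and 8 known binding partners whatever their values. Likeness was Pearson's r. Values of some genes that the lists and the rule take in are not reported here. Sequences came from GENCODE 29 and RefSeq, and all 10 genes were matched in both. The edgeR, limma-voom and DESeq2 fits without a block were checked on simulated counts, with no replicate effect and with changes in well-counted genes only. The blocked, length-corrected and permutation tests were not checked in this way.

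Replicate numbers come from the labels and mark 6 repeats collected together. Same-numbered libraries deviated together, with correlations of at least 0.271, 0.171, 0.557 and 0.403 across genes in the 4 comparisons of conditions. The numbers were therefore used to pair the libraries. Between populations under LCL521, 3 of the 6 PGCC libraries were most like the parental library of their own number. In each other comparison all 6 were, so the pairing is less clear under LCL521 between populations. The study's methods use no block, so the block is an alternative, as are DESeq2, limma-voom, other scalings and filters, leaving out replicates, and corrections for gene length by a lowess curve (span 0.3).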

Additional observations from a re-analysis of the deposited data

How the results depend on the processing

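Of 10 genes, 9 were called in PGCC against parental cells and 9 under LCL521. Of all genes tested, 6541 of 13812 and 6758 of 13818 were called. The replicate block kept both member counts at 9, with 7765 and 7780 of all genes called. The choice of the 10 genes may have used these contrasts, so nothing is read from these counts. Leaving out each replicate in turn gave 6 to 9 and 6 to 9 members, where 39.8% to 45.9% and 41.5% to 45.8% of all genes tested were called, and 0 to 1 genes of all for LCL521 in PGCC. With no filter beyond 1 count in any library, 5 members were called under LCL521, and 27.1% of 29659 genes. For LCL521 in parental cells, where neither a member nor any other gene was called, the block called 1 member and 115 genes, the block without replicates 4 and 5 called 0 members and 3 genes, and the block with the gene length correction called 2 members and 234 genes. For LCL521 in PGCC, with 0 members and 1 gene, the block called 2 members and 234 genes, the block without replicates 4 and 5 called 0 members and 129 genes, the block with the length correction called 1 member and 260 genes, DESeq2 called 6 genes, and limma-voom, one fit of all 24 libraries and leaving out replicates 4 and 5 called 0. The cause of these differences was not tested. No member changed direction between populations under any setting. Values near 0 changed sign. For LCL521 in parental cells these were S100P (0.01 in the block without replicates 4 and 5), and, on leaving out single replicates, S100P (-0.08 to 0.00), S100A3 (-0.19 to 0.03), S100A13 (-0.05 to 0.07) and S100A14 (-0.07 to 0.08). In PGCC they were S100A2 (0.01 with the length correction, with and without the block, and -0.04 to 0.01 on leaving out replicates), S100A4 (-0.06 to 0.01) and S100A14 (-0.37 to 0.01), the last pair on leaving out replicates. In the interaction they were S100A11 (-0.00 with DESeq2, limma-voom, RLE factors, either block and the length correction, -0.01 with at least 10 counts in every library and with the block and length correction, -0.02 with library totals, and -0.03 to 0.04 without single replicates), S100P (-0.28 to 0.02), S100A3 (-0.23 to 0.00), S100A6 (-0.09 to 0.02), S100A13 (-0.14 to 0.01) and S100A14 (-0.81 to 0.07). Among partners between populations they were AGER (0.03 and 0.01 without replicates 4 and 5, without and with the block, and -0.33 to 0.12 without single replicates), AHNAK (0.01 with library totals, -0.15 to 0.00 without single replicates, and -0.20 to 0.04 under LCL521 without single replicates) and CACYBP (-0.01 without the filter, -0.16 without replicates 4 and 5 with and without the block, -0.07 to 0.08 without single replicates, and -0.01 under LCL521 without replicates 4 and 5 with and without the block). Of the CACYBP values, the -0.16 with the block and without replicates 4 and 5 was called lower (edgeR adjusted p = 0.0434). The length corrections and the block within each population were chosen after seeing the data. At 14835246 counts or more per library, S100A14 and S100A3 in parental cells rest on as few as 4 and 8 counts, which limits their precision.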
